A study of Rattus norvegicus with 145 samples.

Results

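The genes described here are the 4 medium-chain acyl-CoA synthetases Acsm1, Acsm2a, Acsm3 and Acsm5, taken by symbol from the raw count tables of rat liver after oral acetamide (4 of 17337 genes). All 4 passed the filter on low counts in each of the 5 data sets, as did 11066 genes in all. The family was chosen by the fold change of Acsm2a in males at day 29 and 1500 mkd (mg/kg/day), where the gene had stood out, so the 4 genes are described in that comparison, and in the male day 29 dose trend, by their values with no test. Acsm2a at the lower doses of day 29 males shares those controls and is described in the same way. Acsm4 had between 0 and 13 reads per rat and was too low to test against dose. Levels are given as CPM, read counts divided by library size after TMM scaling (trimmed mean of M-values, a correction for differences in library composition) over all 145 rats. CPM is not corrected for transcript length, so levels are compared between rats and not between genes.

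Medium-chain acyl-CoA synthetases are mitochondrial enzymes of liver and kidney that join a carboxylic acid to coenzyme A. Their substrates are medium-chain fatty acids, which then enter beta-oxidation, and aromatic acids such as benzoate, which are then conjugated to glycine and excreted. Acsm1 is known for butyrate and medium-chain acids, Acsm2a for medium-chain and xenobiotic acids, and Acsm3, once named SAH, was first described as a gene expressed differently in the kidney of hypertensive rats.

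The study comprised 29 groups of 5 rats. In experiment A, male Hsd:WI rats aged 9 to 10 weeks received 0, 30, 100, 300 or 1000 mkd acetamide in water by daily gavage for 7 days. In experiment B, male and female Crl:WI rats aged 8 to 10 weeks received 0, 300, 500, 750, 1000 or 1500 mkd for 7 or 28 days. All rats, vehicle controls included, were gavaged, and the left liver lobe was taken on day 8 or day 29. Strain, supplier, dose range and experiment changed together between A and B. The tissue is whole liver, so fewer cells of a type and less RNA per cell cannot be told apart, and nothing in the labels ties a rat of one group to a rat of another. Rats are numbered here by their order within the group. In experiment A at 100, 300 and 1000 mkd this order is not always the number in the label.

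The libraries held 15449716 to 39986531 reads on genes (median 28262376). Cyp2c11, the male liver cytochrome, lay between 41.0 and 2806 CPM in the 85 males and between 0 and 34.7 CPM in the 60 females, and Cyp2c12, the female one, lay between 5.59 and 392 CPM in males and between 1148 and 7683 CPM in females, so no library went against its labelled sex. The TMM factors stood highest in rat 2 of experiment A at 1000 mkd (1.74), rat 2 of the day 29 females at 1500 mkd (1.502) and rat 3 of the day 29 males at 1500 mkd (1.44). Results for the highest dose are given with and without these rats where that changed a call.

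**Figure D1:**
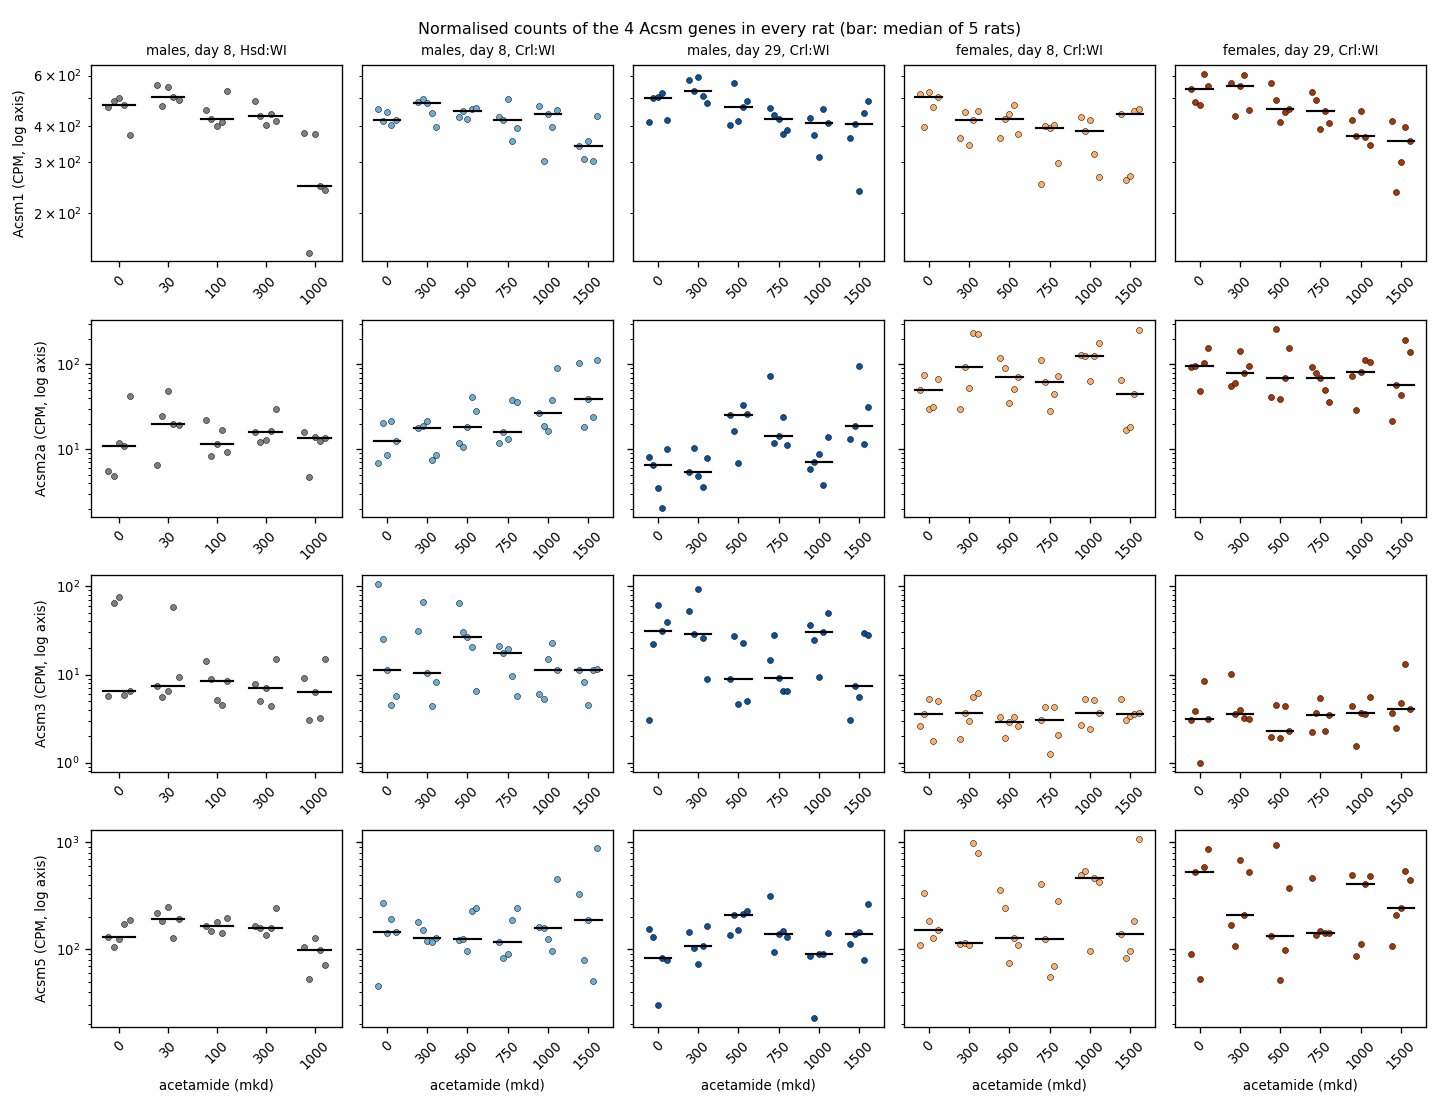
CPM of the 4 genes (rows, log axes) in every rat against acetamide dose in mkd, with 1 column per data set, a point per rat and a bar at the median of 5 rats. Acsm1 stayed between 146 and 608 CPM, and the highest rat of a group was 1.09 to 2.59 times the lowest for Acsm1, 2.46 to 15.0 times for Acsm2a, 1.72 to 23.5 times for Acsm3 and 1.38 to 18.2 times for Acsm5, with Acsm3 low in all females and Acsm2a lowest in day 29 males.

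The 4 genes lie together on chromosome 1. In the RefSeq gene order of GRCr8 the run is Pdilt, Acsm5, Acsm2 (the RefSeq symbol of Acsm2a), RGD1559600, Acsm1, Acsm4, Thumpd1, Eri2 and Acsm3, followed by Rexo5 and Dcun1d3. The gene model of Eri2, on the minus strand, spans Acsm3, on the plus strand, and the model of Pdilt spans Acsm5 to Eri2. The libraries were made with a stranded kit, but the strand setting of the counting is not given in the sources used here, so reads of Acsm3 and Eri2 cannot be told apart with certainty. Pdilt itself reached at most 1.75 CPM. RGD1559600, whose model overlaps Acsm1 on the other strand, lay between 9.36 and 82.6 CPM.

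The 250 bases before the RefSeq start of Acsm5, Acsm2a and Acsm3 are shown because the levels of the first 2 moved together from rat to rat and Acsm3 differed by sex and moved with its neighbours. They are RefSeq sequences of GRCr8, whereas the deposited counts were made on Rn6, and all lie on the plus strand, at chr1:183302259-183302508 for Acsm5, chr1:183347455-183347704 for Acsm2a and chr1:183564402-183564651 for Acsm3. Capitals mark matches to a motif.
Acsm5 promoter: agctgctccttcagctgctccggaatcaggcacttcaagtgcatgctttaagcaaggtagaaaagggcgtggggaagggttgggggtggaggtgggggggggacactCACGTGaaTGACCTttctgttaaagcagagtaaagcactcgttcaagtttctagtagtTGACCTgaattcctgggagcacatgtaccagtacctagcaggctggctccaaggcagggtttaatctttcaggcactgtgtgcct
Acsm2a promoter: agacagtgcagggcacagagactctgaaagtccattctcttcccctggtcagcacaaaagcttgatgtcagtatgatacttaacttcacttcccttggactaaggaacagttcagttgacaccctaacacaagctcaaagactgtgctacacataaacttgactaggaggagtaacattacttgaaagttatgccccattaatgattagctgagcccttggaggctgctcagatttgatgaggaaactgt
Acsm3 promoter: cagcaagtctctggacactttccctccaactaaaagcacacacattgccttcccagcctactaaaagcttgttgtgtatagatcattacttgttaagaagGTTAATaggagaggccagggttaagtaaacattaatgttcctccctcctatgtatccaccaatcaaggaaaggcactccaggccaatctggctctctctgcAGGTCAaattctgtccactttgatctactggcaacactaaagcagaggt

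The 5 motifs searched on both strands were the E-box CACGTG, the STAT5 motif TTCNNNGAA, the nuclear receptor half-site AGGTCA, the D-box TTATGNAA and the HNF1 half-site GTTAAT. Windows were available for all 4 genes and for 27457 promoters in all. The Acsm5 window held the E-box, 143 to 138 bases before the start, and 2 copies of the nuclear receptor half-site on the minus strand (read as TGACCT), 135 to 130 and 85 to 80 bases before the start. The E-box occurred in 5.79% and the half-site in 13.7% of all promoters. The Acsm3 window held 1 half-site, 49 to 44 bases before the start, and 1 HNF1 half-site (6.46% of promoters), 150 to 145 bases before it. The D-box (3.21% of promoters) and the STAT5 motif (7.52%) were in none of the 4 windows, and the Acsm1 and Acsm2a windows held no match. The matches shown do not overlap each other. A match is a description of the letters and not evidence of binding.

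Which rats expressed the genes without treatment was compared first. The day 29 vehicle males entered the choice of the family through their Acsm2a levels, so Acsm2a is given with no test wherever these 5 rats are compared with other vehicle rats. The other genes of the family were not used in the choice, but their values come from the same libraries. Acsm3 was higher in males at both days, Acsm2a was higher in females at day 8, Acsm5 was higher in females at day 29 and not called at day 8, and Acsm1 was not called at either day. In all, 4 of 7 tests were called (adjusted p no higher than 0.05 and a change of 1.5-fold or more), against 8% of all genes tested at day 8 and 12.1% at day 29.

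Acsm3 in vehicle males was at 106, 25.2, 11.3, 4.51 and 5.72 CPM on day 8 and at 3.03, 22.3, 61.6, 31.4 and 39.0 CPM on day 29. In vehicle females it was at 2.58, 3.59, 5.22, 1.74 and 4.97 CPM on day 8 and at 3.07, 3.85, 1.00, 8.42 and 3.10 CPM on day 29. The male and female rats overlapped on both days through the lowest males. The log2 fold change of females over males was -3.08 (SE 0.65, edgeR adjusted p = 0.00022) at day 8 and -3.03 (SE 0.65, edgeR adjusted p = 0.000226) at day 29. Without the rats numbered 1 of every group, among them the male at 106 CPM, the day 8 value was -1.59 (edgeR adjusted p = 0.123). Over all doses, no female exceeded 13.2 CPM, and 23 of 30 males at day 8 and 18 of 30 at day 29 lay above every female of the same day. The same count was not made over all genes, so it is a description.

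Acsm2a in vehicle males was at 6.81, 20.3, 8.58, 21.8 and 12.6 CPM on day 8 and at 8.19, 6.51, 3.53, 2.06 and 10.0 CPM on day 29. In vehicle females it was at 49.9, 74.4, 29.9, 31.6 and 66.7 CPM on day 8 and at 94.1, 96.4, 48.7, 104 and 155 CPM on day 29. Every vehicle female lay above every vehicle male of the same day. The log2 fold change of females over males was 1.86 (SE 0.59, edgeR adjusted p = 0.0247) at day 8. This call was lost in 4 of 5 fits that left out 1 rat number (adjusted p up to 0.0948). At day 29 the value was 4.03 (SE 0.65), a description with no test. Over the 6 doses, vehicle included, all 5 females were above all 5 males in 2 dose groups at day 8 and in 4 at day 29. The day 29 count includes the males on which the family was chosen. The share of all genes with such a split was not counted, so both counts are descriptions.

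Acsm5 in vehicle females at day 29 was at 89.7, 530.3, 52.3, 588 and 862 CPM, and in vehicle males at 154, 130.0, 30.2, 82.7 and 80.3 CPM. The females fell into 2 rats within the male range and 3 far above it. The log2 fold change was 2.14 (SE 0.67, edgeR adjusted p = 0.0161), and it missed the threshold without the rats numbered 4 or 5 (adjusted p up to 0.105). At day 8 the value was 0.21 (SE 0.65, edgeR adjusted p = 0.896). Acsm1 differed between the sexes by 0.17 (SE 0.14, edgeR adjusted p = 0.514) at day 8 and 0.16 (SE 0.14, edgeR adjusted p = 0.47) at day 29.

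Day 29 was then set against day 8 in the vehicle controls of each sex. None of the 7 tests was called by edgeR or by DESeq2, and 0 had an unadjusted p below 0.05. Acsm2a in males, given with no test, had a log2 fold change of -1.21 (SE 0.60). Of all genes, 0.0169% were called in males and 1.25% in females. Day, age and any library batch cannot be told apart in this comparison.

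Each dose was next compared with the vehicle group of its own data set, apart from 1500 mkd in day 29 males. Of the 92 tests 4 were called by edgeR and 6 by DESeq2, and all 4 edgeR calls were decreases at the highest dose. The calls were Acsm1, Acsm3 and Acsm5 in experiment A at 1000 mkd, where 21.4% of all genes were called either way and 7.45% were called lower, and Acsm1 in day 29 females at 1500 mkd, where 13.1% were called either way and 3.54% were called lower. Doses within a data set share their controls. The 92 tests include Acsm2a at the lower doses of day 29 males, which share the controls it was chosen on and are read as descriptions. Of the 6 DESeq2 calls 1 was among these, at 750 mkd, where DESeq2 called 310 genes and edgeR 88. At the doses below the highest, the share of all genes called was 0% at each dose in experiment A and in day 8 Crl:WI males. It was 0.0087%, 0.0174%, 0.0174% and 1.37% in day 8 females at 300, 500, 750 and 1000 mkd, 0%, 0%, 0.78% and 2.76% in day 29 males and 0%, 0.0349%, 0.183% and 1.59% in day 29 females.

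**Figure D2:**
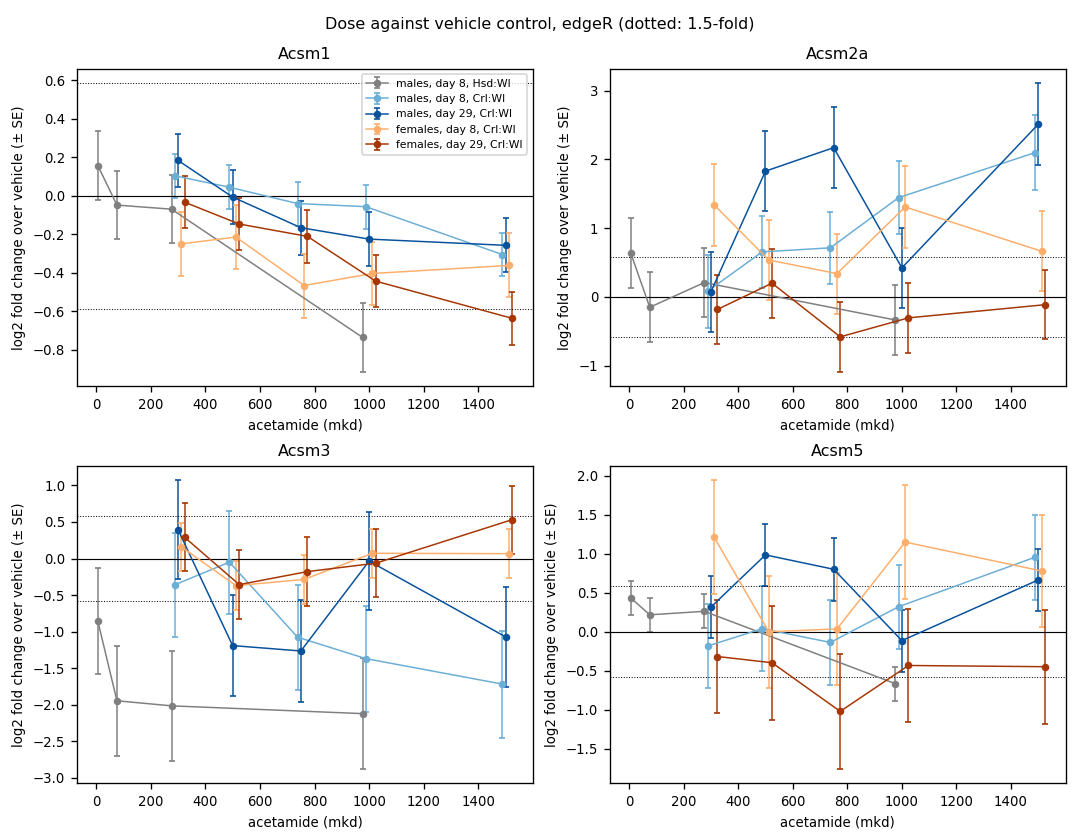
Log2 fold change over vehicle (vertical axes, bars are ± 1 SE from edgeR) against dose in mkd for the 4 genes, with a colour per data set, points shifted sideways so that the bars can be seen, and dotted lines at 1.5-fold. Acsm1 had the smallest errors and fell at the highest doses, and Acsm2a reached its highest values in Crl:WI males, with 0.42 at 1000 mkd on day 29 between 2.17 and 2.51 at the doses on either side.

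Acsm1 fell with dose in experiment A and in day 29 females. In experiment A the vehicle males were at 466, 491, 502, 475 and 373 CPM and the males at 1000 mkd at 378, 146, 377, 249 and 241 CPM. Of the treated rats 3 lay below all controls, and the other 2 were just above the lowest control. The log2 fold change was -0.73 (SE 0.18, edgeR adjusted p = 0.00394). In day 29 females the vehicle rats were at 539.7, 487, 474, 608 and 553 CPM and those at 1500 mkd at 417, 237, 301, 398 and 355 CPM. These 2 groups did not overlap, and the log2 fold change was -0.64 (SE 0.14, edgeR adjusted p = 0.00222). The call was lost when only the control and the tested dose were fitted (edgeR adjusted p = 0.0522). At 1000 mkd all 5 of these females were also below every control (344 to 453 CPM), with a log2 fold change of -0.44 (SE 0.14, edgeR adjusted p = 0.0757).

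In the other data sets Acsm1 also had a negative log2 fold change at the highest dose, but none was called. It was -0.30 (SE 0.11, edgeR adjusted p = 0.238) in day 8 Crl:WI males and -0.36 (SE 0.17, edgeR adjusted p = 0.308) in day 8 females. In day 29 males at 1500 mkd, given with no test, the rats were at 364, 409, 239, 446 and 490 CPM against 414, 501, 507, 524 and 420 CPM in their controls, and the lowest was rat 3.

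As a trend over dose, Acsm1 fell by 0.81 on the log2 scale per 1000 mkd in experiment A (SE 0.15, edgeR adjusted p = 0.000155) and fell by 0.46 in day 29 females (SE 0.08, edgeR adjusted p = 9.83e-05). In experiment A the log2 fold changes at 30, 100 and 300 mkd were 0.16, -0.05 and -0.07, so that slope rests on the 1000 mkd group. The slopes in day 8 males of Crl:WI (-0.23, SE 0.07, edgeR adjusted p = 0.0706) and day 8 females (-0.23, SE 0.10, edgeR adjusted p = 0.155) were not called. Trends were called by adjusted p alone, for 45.9% of all genes in experiment A, 27.3% in day 29 females, 2.52% in day 8 Crl:WI males and 5.44% in day 8 females. In day 29 males, where 24.5% were called, the Acsm1 slope was -0.26, given with no test.

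Library composition and summed cell type markers also differed between the groups in which Acsm1 was called. Only some of the marker lists that were summed are given here. In experiment A the TMM factors were 0.797 to 0.901 in the vehicle rats and 0.980 to 1.74 at 1000 mkd. The summed CPM of 10 hepatocyte markers went from a median of 283156 to 153751 (range at 1000 mkd 80882 to 259724). This hepatocyte sum is carried mainly by albumin (Alb), with a median of 151882 CPM over all rats of the study. The next highest marker, Tf, had a median of 27836 CPM, and Hnf4a, the lowest, had 744 CPM. A lower hepatocyte sum therefore does not show, in either data set, that each of the 10 markers fell. The sum of 8 markers of dividing cells went from 26.0 to 97.0 CPM, that of 10 macrophage markers from 1038 to 1637 CPM and that of 8 T and NK cell markers from 8.93 to 25.8 CPM. In day 29 females the TMM factors were 0.749 to 1.07 and 1.09 to 1.502, the hepatocyte sum went from 220801 to 167689 CPM and the dividing cell sum from 14.0 to 101 CPM. Their part in the Acsm1 values was not tested. With library totals in place of TMM factors the log2 fold change of Acsm1 was -0.26 (edgeR adjusted p = 0.0595) in experiment A and -0.23 (edgeR adjusted p = 0.0653) in day 29 females, beside a shift of the median of all genes to 0.58 and 0.42. Relative to that median Acsm1 was at -0.84 and -0.65, and 46.7% and 29.9% of all genes were called. Without rat 2 of the treated group, which had the lowest Acsm1 and the highest TMM factor in both groups, the values were -0.57 (edgeR adjusted p = 0.00599) and -0.53 (edgeR adjusted p = 0.0108), both short of the 1.5-fold limit.

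Both experiments gave 1000 mkd to males for 7 days, which allowed a test of the difference itself. Acsm1 changed by -0.73 in experiment A and by -0.06 (SE 0.11, edgeR adjusted p = 0.972) in experiment B. The difference between the experiments was -0.69 (SE 0.21, edgeR adjusted p = 0.033), against 6.9% of all genes called in this comparison. It was no longer called without the rats numbered 2, 4 or 5, nor with library totals (-0.26, edgeR adjusted p = 0.145). Strain, supplier and experiment cannot be told apart here. The other 3 genes were not called.

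Acsm2a rose with dose in day 8 Crl:WI males by the trend over dose, though no single dose was called by edgeR, and it varied widely within each group. On day 8 the vehicle males were between 6.81 and 21.8 CPM, and the males at 1500 mkd were at 104, 18.6, 39.4, 23.9 and 114 CPM. Of these 5 rats 4 lay above all controls, and the highest were rats 1 and 5. The log2 fold change was 2.10 (SE 0.54, edgeR adjusted p = 0.0746), and it was called by DESeq2 (adjusted p = 0.0197). DESeq2 called 174 genes in this comparison, against 20 by edgeR. At 1000 mkd the rats were at 27.1, 18.6, 16.6, 38.5 and 89.6 CPM, with a log2 fold change of 1.44 (SE 0.53, edgeR adjusted p = 0.942). The trend over all 30 rats was called, at 1.48 log2 units per 1000 mkd (SE 0.29, edgeR adjusted p = 0.00468), where 1.98% of all genes were called upward. The trend missed the threshold in 1 of 5 fits that left out a rat number, the one without rats numbered 1 (1.26, edgeR adjusted p = 0.0572).

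On day 29 the vehicle males lay between 2.06 and 10.0 CPM of Acsm2a, and those at 300 mkd between 3.62 and 10.3 CPM. At 500 mkd they were at 25.1, 16.3, 6.91, 33.0 and 25.7 CPM, and 4 of 5 were above all controls. At 750 mkd they were at 74.1, 12.0, 14.2, 24.3 and 11.3 CPM, and all 5 were above all controls. The log2 fold changes at 500 and 750 mkd were 1.83 (SE 0.58) and 2.17 (SE 0.59). Without rat 1, the one at 74.1 CPM, the value at 750 mkd was 1.36. At 1000 mkd the rats lay between 3.79 and 14.1 CPM (log2 fold change 0.42, SE 0.58), so the levels did not follow the order of the doses. These comparisons share their controls with the one in which the gene was noticed, so they are descriptions with no test.

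At 1500 mkd on day 29, where 4.91% of all genes were called, the Acsm2a values were 13.3, 18.9, 95.2, 11.7 and 31.1 CPM and the log2 fold change was 2.51 (SE 0.59), a description with no test. All 5 rats were above all controls, and rat 3 stood highest. Without that rat the value was 1.60, and without the rats numbered 3 of every group it was 1.47. By its label, rat 3 is the animal that the paper named an outlier for Ki67 labeling, its measure of cell proliferation, and left out of dose modeling. It also had a summed level of dividing cell markers of 1019.7 CPM, against 14.6 to 61.7 CPM in the other 4 rats and 12.1 to 36.7 CPM in vehicle males, a TMM factor of 1.44 and the lowest Acsm1 of the group. Their part in the Acsm2a value was not tested, and 1.60 is the value without that rat.

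In experiment A the highest Acsm2a belonged to a control and a 30 mkd rat (42.7 and 48.9 CPM), and at 1000 mkd the 5 rats lay between 4.73 and 16.0 CPM. In females no trend was called, with slopes of 0.22 (SE 0.39, edgeR adjusted p = 0.806) on day 8 and -0.14 (SE 0.29, edgeR adjusted p = 0.748) on day 29. Day 8 females at 1500 mkd spread from 17.1 to 256 CPM, and 2 of them lay below all controls. The difference between the male and female responses to 1500 mkd on day 8 was -1.44 (SE 0.81, edgeR adjusted p = 0.997), so the male and female responses were not shown to differ. None of the 8 tests of this kind, for sex on day 8 and for day in females, was called by edgeR or DESeq2, and 1 had an unadjusted p below 0.05, Acsm3 for sex (1.78, SE 0.88, edgeR adjusted p = 0.997). Of all genes, 0% and 0.0169% were called in these 2 comparisons. With day 29 males in the comparison, given with no test, the Acsm2a difference was -2.61 for sex on day 29 (0.441% of all genes called) and 0.39 for day in males (0% called).

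Acsm3 in the males of experiment A fell into a low and a high set of rats. Of these, 22 of 25 rats lay at or below 15.1 CPM, the other 3 were at 58.8, 64.8 and 75.9 CPM, and none lay between. Of these 3, 2 were vehicle controls. The vehicle rats were at 5.70, 64.8, 75.9, 5.87 and 6.51 CPM, and the third high rat had received 30 mkd. At 1000 mkd the rats were at 9.04, 3.03, 6.27, 3.20 and 15.1 CPM, overlapping the 3 low controls. The decrease was called (log2 fold change -2.12, SE 0.76, edgeR adjusted p = 0.0363). The call was lost without either high control (rats 2 and 3), without treated rats 2, 3 or 4, and with library totals (-1.58, edgeR adjusted p = 0.0652), and the vehicle median of 6.51 CPM was close to the treated median of 6.27 CPM. A fit with the replicate number as a block lost the call as well (adjusted p = 0.0692), as did a fit of only the control and the tested dose (adjusted p = 0.0791). The trend over dose in experiment A was -1.56 log2 units per 1000 mkd (SE 0.68, edgeR adjusted p = 0.0605) and was not called.

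In Crl:WI males Acsm3 spanned 4.45 to 106 CPM on day 8 and 3.03 to 92.3 CPM on day 29. The trend over dose on day 8 was -1.28 log2 units per 1000 mkd (SE 0.42, edgeR adjusted p = 0.0963) and was not called, and on day 29 it was -0.67, given with no test. At 1500 mkd on day 8 all 5 rats were between 4.51 and 11.5 CPM, with a log2 fold change of -1.72 (SE 0.73, edgeR adjusted p = 0.309), and the controls reached 106 CPM in 1 rat and 4.51 CPM in another. Without the control at 106 CPM the log2 fold change was -0.34 (edgeR adjusted p = 0.895). On day 29 the 5 rats at 1500 mkd were at 3.03, 7.38, 5.62, 29.8 and 27.8 CPM, within the 3.03 to 61.6 CPM of the controls. In females Acsm3 stayed between 1.00 and 13.2 CPM at all doses, and the log2 fold changes at 1500 mkd were 0.07 on day 8 and 0.53 (SE 0.46) on day 29, neither of them called.

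Acsm5 was called at 1 dose. In experiment A it was at 129, 104, 126, 172 and 189 CPM in vehicle males and at 105, 52.3, 128, 98.7 and 71.9 CPM at 1000 mkd, with 3 treated rats below all controls. The log2 fold change was -0.66 (SE 0.22, edgeR adjusted p = 0.0249), just past the 1.5-fold limit, and the slope was -0.91 per 1000 mkd (SE 0.21, edgeR adjusted p = 0.00118). At 30, 100 and 300 mkd the log2 fold changes were 0.44, 0.22 and 0.26, none of them called. Only 1000 mkd lay below vehicle, so the slope does not show a graded decline. With library totals the fold change at 1000 mkd was -0.18 (edgeR adjusted p = 0.378). The call was also lost without treated rats 2 or 5 or controls 4 or 5 (adjusted p 0.0579 to 0.0827). A fit of only the control and the tested dose lost it too (edgeR adjusted p = 0.0722).

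In Crl:WI rats the spread of Acsm5 within a group was wider than most differences between groups. Day 8 males at 1500 mkd were at 326, 79.6, 188, 51.1 and 886 CPM, against 45.3, 269, 143, 191 and 144 CPM in vehicle. Day 8 females at 1500 mkd were at 139, 82.9, 96.8, 183 and 1070.0 CPM, against 110.4, 339, 184, 128 and 151 CPM in vehicle. The log2 fold changes were 0.96 (SE 0.54) and 0.78 (SE 0.72), and in day 29 females -0.45 (SE 0.73, edgeR adjusted p = 0.704). Leaving out the rats numbered 5 brought the day 8 male value to -0.02.

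How far the rats of 1 group lay apart was measured as the SD of log2 CPM within groups, beside the same for all 11066 genes. Acsm2a had an SD of 0.86 to 0.99 in the 5 data sets, above that of 97.3% to 98.5% of genes. Acsm3 had an SD of 1.22 to 1.26 in the 3 male data sets, above 99.2% to 99.4% of genes, and of 0.56 and 0.77 in females. Acsm5 had an SD of 1.21 and 1.31 in females, above 99.4% and 99.5% of genes, but of 0.36 in experiment A, above 61.2%. Acsm1 had an SD of 0.17 to 0.28, below that of the median gene in each data set (0.28 to 0.31).

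Acsm2a and Acsm5, which are direct neighbours in the gene order, rose and fell together from rat to rat in 3 of the 5 data sets by both measures. Day 29 males, 1 of the other data sets, are given with no test. Of the 11065 other genes, each was the gene most like the other, both by the mean Spearman rho within the 5 data sets (0.65) and by Pearson r of log2 CPM centred on the group over 145 rats (0.71). The next gene was at a mean rho of 0.37 for Acsm2a (Rtn3) and 0.40 for Acsm5 (Txnrd3). This ranking is a description, since all genes were read from the same libraries and scaled together.

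**Figure D3:**
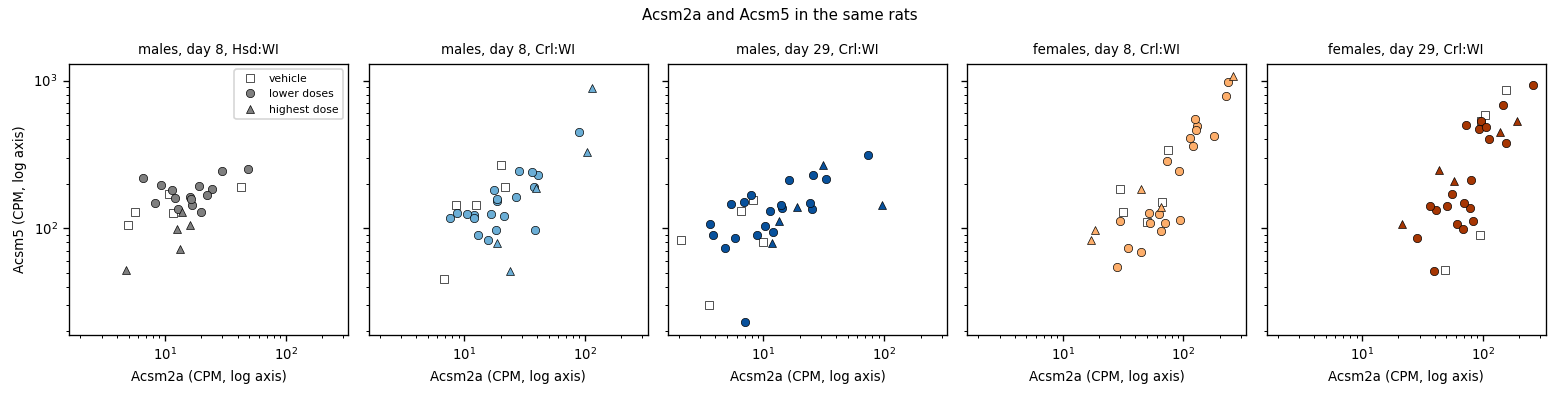
Acsm5 against Acsm2a in CPM (both axes log) in the rats of each data set, with open squares for vehicle, circles for lower doses and triangles for the highest dose. Pearson r, taken on log2 CPM centred on the dose group, was 0.79 to 0.87 in day 8 Crl:WI males and in females of both days. It was 0.47 and 0.53 in day 29 males and experiment A. The plotted values are not centred, and vehicle and treated rats lay along the same cloud.

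Within data sets the relation of Acsm2a and Acsm5 was tested on log2 CPM centred on the dose group, by 100000 permutations of rats within groups. P-values were adjusted over the 30 pairs of members and data sets, those of Acsm2a in day 29 males included. The rho given here is thus not the one behind the mean rho of the ranking, which used values that were not centred. In day 8 females Pearson r was 0.87 and Spearman rho 0.85 (n = 30, both permutation adjusted p = 0.00015, built on the smallest p that 100000 permutations can give, 1e-05). In day 29 females r was 0.79 and rho 0.76 (n = 30, both permutation adjusted p = 0.00015). In day 8 Crl:WI males r was 0.80 and rho 0.82 (n = 30, both permutation adjusted p = 0.0002). In day 29 males r was 0.47 and rho 0.54 (n = 30), given with no test because Acsm2a in these rats entered the choice of the family. In experiment A r was 0.53 (n = 25, permutation adjusted p = 0.0682) and rho 0.48 (permutation adjusted p = 0.115). Leaving out the 2 rats farthest from the Acsm2a median gave r of 0.84, 0.75, 0.75, 0.43 and 0.62 in the same order.

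Single rats show the pairing. In day 8 females at 1500 mkd rat 5 had both the highest Acsm2a (256 CPM) and the highest Acsm5 (1070.0 CPM) of all females of that day. In day 29 females at 500 mkd rat 2 had 260.3 CPM of Acsm2a and 935 CPM of Acsm5, while rat 3 of the same group had 39.6 and 51.4 CPM. The rat with the highest Acsm2a of day 29 males, rat 3 at 1500 mkd, was an exception, with an Acsm5 of 144 CPM beside 95.2 CPM of Acsm2a.

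Of the other 25 relations between members, 1 passed on both measures. Those of Acsm2a in day 29 males are among the 25 and are read as descriptions. Acsm1 and Acsm3 rose together in day 29 males (r 0.63, permutation adjusted p = 0.00232, and rho 0.69, permutation adjusted p = 0.000975, n = 30, r 0.68 without the 2 rats farthest from the Acsm1 median). In the other 4 data sets their r was between 0.16 and 0.30, with permutation adjusted p from 0.15 to 0.56.

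Acsm3 was most like its neighbours. Thumpd1, a tRNA acetylation factor, ranked highest of 11065 genes on both measures (mean rho 0.63, centred r 0.69) and Eri2, an exonuclease gene whose model spans Acsm3, was next (mean rho 0.48, centred r 0.57). The gene after them by rho was Cyp3a18 (0.43). The centred r of Acsm3 with Thumpd1 was 0.72, 0.78 and 0.71 in the 3 male data sets and 0.59 and 0.46 in day 8 and day 29 females. Thumpd1 is not overlapped by Acsm3 in GRCr8, whereas the models of Eri2 and Acsm3 overlap, and the part of shared reads in the Eri2 relation was not tested. Acsm3 and Thumpd1 were both higher in vehicle males, where Thumpd1 was at 76.8 ± 17.9 (SD, n = 5) on day 8 and 91.1 ± 23.9 CPM on day 29, against 43.5 ± 2.19 and 43.0 ± 4.53 CPM in vehicle females.

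**Figure D4:**
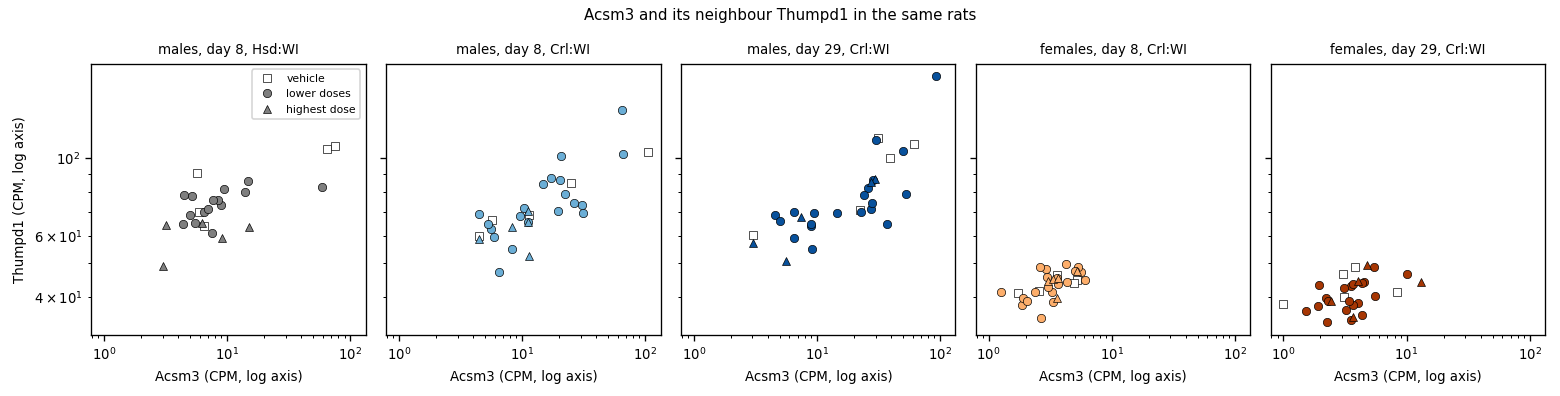
Thumpd1 against Acsm3 in CPM (both axes log) in the rats of each data set, with open squares for vehicle, circles for lower doses and triangles for the highest dose. The males spread over a long rising cloud and the females gathered at low values of both genes, with Acsm3 below 14 CPM.

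The genes most like Acsm1 were Sdha, a succinate dehydrogenase subunit (mean rho 0.83), Tmprss6 (0.79) and Ivd, isovaleryl-CoA dehydrogenase (0.79), and by centred r Ivd (0.83), Gltpd2 (0.83) and Sdha (0.82). Weaker relations than these were common for Acsm1. Of all genes, 28.6% had a centred r above 0.3 in size with Acsm1, against 0.407% with Acsm2a, 4.13% with Acsm3 and 0.389% with Acsm5.

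**Figure D5:**
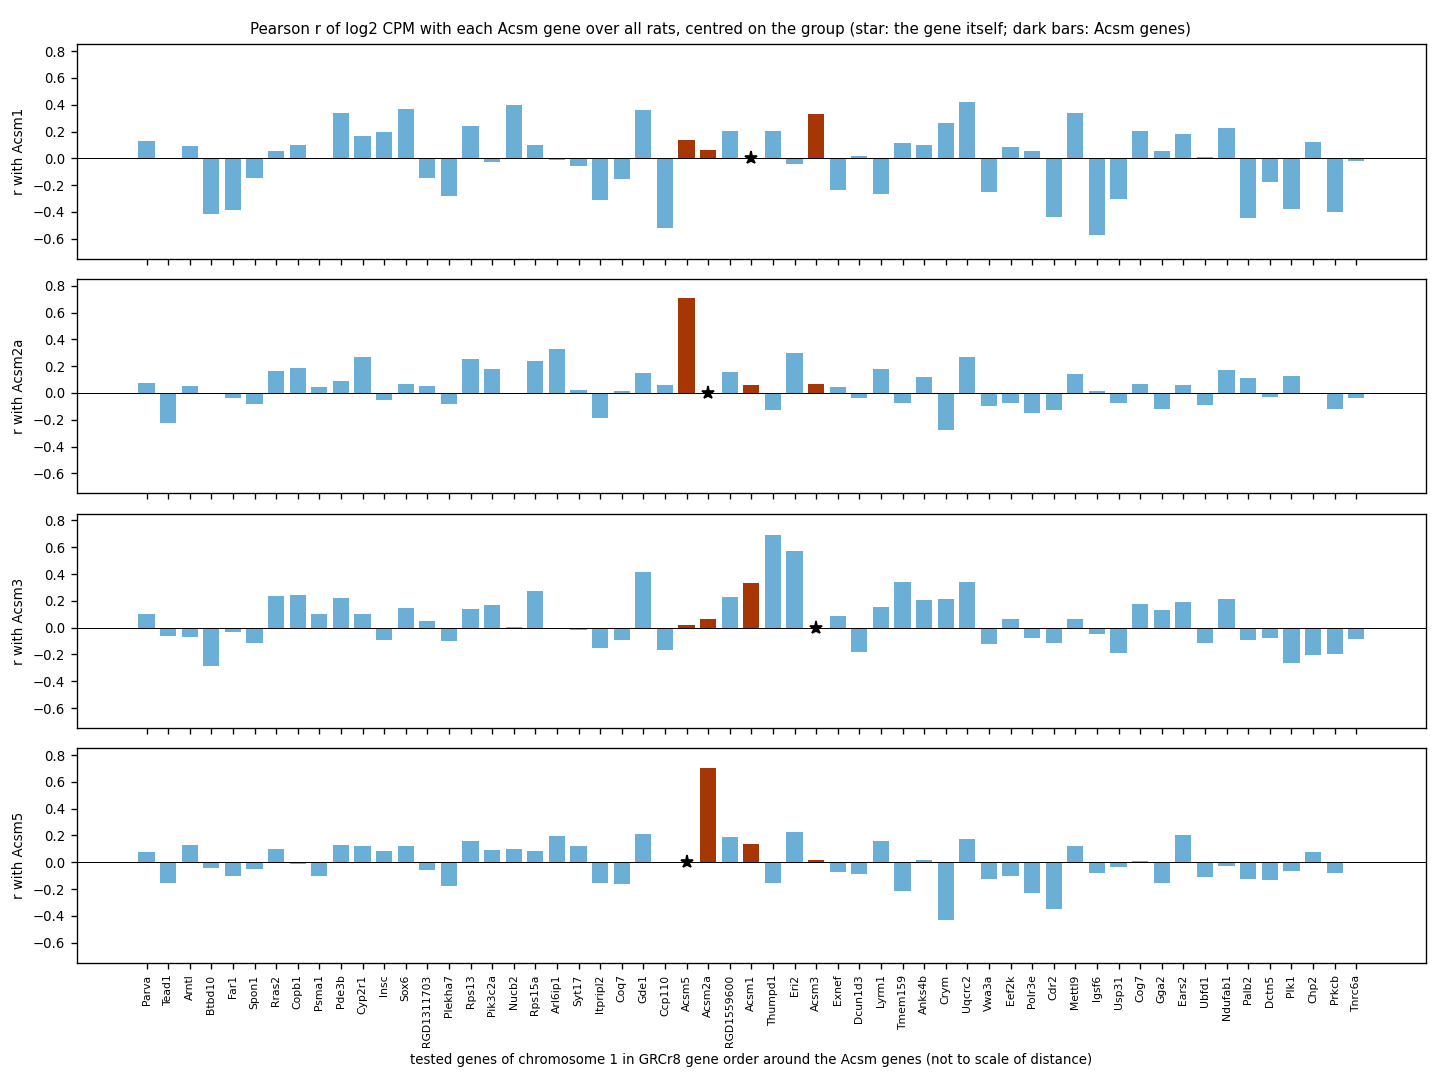
Pearson r of log2 CPM (vertical axes, centred on the group, 145 rats) between each Acsm gene (rows) and the tested genes around the family in GRCr8 gene order (horizontal axis, 1 place per gene and not to distance), with a star at the gene itself and dark bars for the other Acsm genes. Acsm2a and Acsm5 had their highest r with each other (0.71), and Acsm3 most with Thumpd1 and Eri2.

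This stretch of the chromosome held 53 tested genes outside the family, 25 to each side and those between. The r exceeded 0.3 in size with 16 of them for Acsm1 (30.2%, against 28.6% of all genes). For Acsm2a it did so with 1 (1.89% against 0.407%), Arl6ip1 at 0.33. For Acsm5 it did so with 2 (3.77% against 0.389%), Crym at -0.43 and Cdr2 at -0.35. For Acsm3 it did so with 5 (9.43% against 4.13%), namely Thumpd1, Eri2, Gde1, Uqcrc2 and Tmem159, the last at 0.34. These genes outside the family were singled out after their values were seen. Rexo5 and Dcun1d3, the next genes beyond Acsm3, had an r of 0.08 and -0.18 with it.

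Other genes that activate or use fatty acids were counted from lists. In experiment A at 1000 mkd 21.4% of all genes were called either way and 7.45% were called lower. Beside this, 2 of 4 short-chain acyl-CoA synthetases, 1 of 6 long-chain ones and 2 of 5 fatty acid transport proteins tested were called lower. Another transport protein, Slc27a3 (log2 fold change 2.01), was called higher. All 3 tested genes of glycine conjugation were called lower, namely Glyat, glycine N-acyltransferase (-1.24, SE 0.28), Glyatl1 (-1.54, SE 0.27) and Glyatl2 (-1.40, SE 0.30), as were 8 of 11 genes of medium-chain fatty acid oxidation, with a median log2 fold change of -0.67 against 0.00 over all genes. Acsl1, the main long-chain synthetase of liver, changed by -1.40 (SE 0.26, edgeR adjusted p = 0.000566), and Acads, short-chain acyl-CoA dehydrogenase, by -1.02 (SE 0.21, edgeR adjusted p = 0.00112).

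With library totals in experiment A the 3 glycine conjugation genes were still called lower, but 0 of the 11 oxidation genes and 0 of the 4 short-chain synthetases were, and the medians of the long-chain and transport lists turned positive (0.16 and 0.52), beside a median over all genes of 0.58. Glycine conjugation takes the acyl-CoA that the Acsm enzymes make from benzoate.

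In day 29 females at 1500 mkd 13.1% of all genes were called either way and 3.54% were called lower. Beside this, 1 gene of each list was called lower, namely Acss3 (-0.89), Acsl5 (-0.91), the bile acid and fatty acid ligase Slc27a5 (-0.85), Glyat (-1.13) and Acads (-0.83). Acss1, mitochondrial acetyl-CoA synthetase, was called higher (0.75), though not with DESeq2 size factors. The median of the oxidation list was -0.39 and turned to 0.05 with library totals. At the highest dose in day 8 Crl:WI males, where 0.177% of all genes were called, in day 8 females, where 0.705% were, and in day 29 males, no gene of the 5 lists was called. In vehicle rats 3 of 4 short-chain synthetases were called higher in females on each day (2 on day 29 with library totals), and 3 of 6 long-chain ones on day 8 and 2 of 6 on day 29. Of all genes, 3.98% were called higher in females on day 8 and 6.46% on day 29. Of the 11 oxidation genes 1 was called higher and 1 lower on day 8, and 1 higher and 2 lower on day 29. Among 5 transport proteins 1 was called higher on day 29, and no glycine conjugation gene was called on either day.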

How the data were processed

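Total RNA of 145 rat livers was sequenced from stranded mRNA libraries. The raw counts per gene were deposited by the authors after trimming with Trimmomatic, alignment with Bowtie2 and counting with HTSeq on Rn6 (versions and the strand setting are not given in the sources used here). Here genes with low counts were removed by filterByExpr, libraries were scaled by TMM, and each data set was fitted with edgeR 4.0.16 (quasi-likelihood F-test, R 4.3.3). Calls needed a 1.5-fold change or more together with an adjusted p (Benjamini-Hochberg, over all genes tested) no higher than 0.05, and slopes needed the adjusted p alone. Sex, day and experiment were tested as contrasts or interactions in joint fits. DESeq2 1.42.0, other scalings and filters, a replicate block and leave-outs were alternatives. The scripts were tested on simulated data. The members and gene lists were chosen with earlier results of these data known. Genes outside the family were named by their rank in likeness to a member, their place beside the family or their call within a list. The label of the day 29 male controls names the other experiment, but their title, strain and age place them in experiment B, where they were used. Nothing in the labels says that same-numbered rats belong together. P-values set a difference or relation against the spread between rats, which were taken as independent. The paper states that rats shared cages, and cages were not modeled.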

Additional observations from a re-analysis of the deposited data

Results flagged for a closer look

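Leaving out the groups the family was chosen on, vehicle and 1500 mkd in day 29 males, in 16 of 108 sets of 5 rats (14.8%) a single rat lay far from the other 4 by Dixon's test. Chance gives this in about 1 of 20 sets only if values are normally distributed and sets are independent. The test was run on CPM and not on the log scale, and Acsm2a and Acsm5 moved together. The 14.8% can therefore not be read as an excess over chance. For Acsm1 this was a vehicle male of experiment A (rat 5, 373 CPM, the lowest). For Acsm2a it was the highest rat among experiment A vehicle (42.7 CPM) and 300 mkd males (29.8 CPM), day 8 females at 1500 mkd (256 CPM), and day 29 males at 750 mkd (74.1 CPM).

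For Acsm3 it was the highest rat at 30 mkd in experiment A (58.8 CPM), in day 8 vehicle males of Crl:WI (106 CPM), in day 8 females at 1500 mkd (5.26 CPM), and in day 29 females at 300 mkd (10.0 CPM) and 1500 mkd (13.2 CPM). For Acsm5 it was the highest rat at 300 mkd in experiment A (244 CPM), at 1000 mkd in day 8 Crl:WI males (449.7 CPM), at 750 mkd in day 29 males (315 CPM) and day 29 females (468 CPM) and at 1500 mkd in day 8 females (1070.0 CPM), and the lowest rat at 1000 mkd in day 8 females (95.5 CPM). Rat 5 of the day 8 females at 1500 mkd and rat 1 of the day 29 males at 750 mkd were far from the others for both Acsm2a and Acsm5.

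The change of Acsm1 at 1000 mkd differed between the experiments by -0.69 on the log2 scale (edgeR adjusted p = 0.033).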

How the results depend on the processing

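The 92 dose tests include Acsm2a in day 29 males below 1500 mkd, which is given as a description. Of the 92, 4 were called. The count was 1, Acsm1 in experiment A, when only the control and the tested dose were fitted. It was 0 with library totals, a scaling chosen after seeing the data, and leave-outs gave 0 to 5. It was 0 without the rats numbered 2 and 1 without rat 2 of experiment A at 1000 mkd. The 4 sex calls became 2 to 3 in leave-outs, 2 without the rats numbered 1 or 5. The experiment difference in Acsm1 was called for 0 genes with library totals and for 0 to 1 in leave-outs. With library totals the log2 fold change turned to 0.13 for Acsm2a in experiment A at 1000 mkd, to 0.30 for Acsm2a and 0.043 for Acsm5 in day 29 females at 1500 mkd, and to -0.043 for Acsm3 between days in females. Leave-outs turned uncalled values, with ranges at the highest dose of -0.68 to 0.54 (Acsm2a, experiment A), -0.59 to 0.14 (Acsm2a, day 29 females), -0.47 to 1.11 (Acsm2a, day 8 females), -0.059 to 1.01 (Acsm3, day 29 females), -0.17 to 0.26 (Acsm3, day 8 females), -0.61 to 1.37 (Acsm5, day 8 females) and -0.015 to 1.47 (Acsm5, day 8 Crl:WI males), and for Acsm3 of -0.57 to 1.72 between days in males, -0.59 to 0.48 in females and -2.68 to 0.22 between experiments. The causes were not tested. Groups of 5 rats and the wide spread of Acsm2a, Acsm3 and Acsm5 limit what could be called.

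With the replicate number as a block 3 of 92 dose tests were called and the sex calls stayed at 4, while Acsm3 between days in females turned to -0.015. Same-numbered rats shared only a place in the order of their group (median correlation of their deviations -0.025 to 0.026 in the 5 data sets). In experiment A this place is not always the number in the label.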
